A study of Mus musculus with 79 samples.

Results

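The genes described here are the numbered cadherins and the numbered, nonclustered protocadherins of the mouse: every row of the deposited table whose symbol is Cdh or Pcdh followed by a number, with Pcdh11x. The rule reads symbols only and uses no measured value. It selected 35 of the 38879 genes in the table, 23 of them Cdh and 12 Pcdh, and left out the 57 clustered protocadherins of the Pcdha, Pcdhb and Pcdhg loci. By structure, 5 of the Cdh genes encode type I classical cadherins (Cdh1, Cdh2, Cdh3, Cdh4, Cdh15) and 13 encode type II classical cadherins (Cdh5 to Cdh12, Cdh18, Cdh19, Cdh20, Cdh22 and Cdh24). The other 5, Cdh13, Cdh16, Cdh17, Cdh23 and Cdh26, are not classical cadherins in the strict sense. Among the protocadherins, 4 belong to the delta-1 group (Pcdh1, Pcdh7, Pcdh9, Pcdh11x) and 5 to the delta-2 group (Pcdh8, Pcdh10, Pcdh17, Pcdh18, Pcdh19), and Pcdh12, Pcdh15 and Pcdh20 were kept apart.

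RNA was sequenced from 4 kinds of neuron of the medial prefrontal cortex: pyramidal neurons (PYR) and 3 classes of inhibitory interneuron, named for their marker as PV (parvalbumin), SST (the peptide somatostatin) and VIP (vasoactive intestinal peptide). Each library was made from 130 cells that were recognised with RNAscope probes in frozen sections and cut out by laser, and each belongs to 1 numbered mouse, which gave 1 library of each type, except for 1 UCMS mouse that has no PV library here. All 20 mice were male C57Bl/6J animals. The 10 control mice were group-housed with littermates and met no stressor. The 10 UCMS mice were housed singly and went through 5 weeks of changing mild stressors, among them forced baths, restraint, predator odor, wet bedding, tilted cages and disturbed light cycles. Housing and stress differ together between the arms and cannot be told apart. Behavioural tests took place in weeks 4 and 5 and were part of the protocol, so the brains come from tested animals; the age of the mice is not given in the sources used here. The p-values for stress within a type and for its average measure the spread between mice. Those between types and for the interaction measure how far type differences varied from mouse to mouse, since each mouse was a block. There were 79 libraries, 10 for each type and arm except 9 for PV neurons of UCMS mice.

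Recovered read totals ran from 3642579 to 13529571 per library, and 9033 to 20307 genes were detected. The libraries carried the markers of their labels: the summed level of 6 markers of GABA neurons had a median of 927 normalized counts in control PYR libraries and of 24295, 14448 and 14914 in control PV, SST and VIP libraries, and the 7 pyramidal markers had medians of 17531, 3497, 4008 and 5764 in the same order. Interneuron libraries thus held pyramidal transcripts at a lower level, and every library held astrocyte transcripts, with a median sum over 8 markers of 10234 in control VIP libraries, where PYR libraries had 8316 and those of SST and PV neurons 6522 and 6399. In a library of captured cells, fewer cells of a type and less RNA per cell cannot be told apart. Of the 7 libraries with fewest reads, 4 are control VIP, 2 are UCMS VIP and 1 is control PV.

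Classical cadherins span the membrane, bind partners of the same or a related kind on the opposing cell through their extracellular domains in the presence of calcium, and are tied to actin through catenins bound to their tail. Type II cadherins bind selectively among themselves and are known for marking nuclei and layers of the developing brain. The delta-protocadherins adhere more weakly, act also as signalling receptors, and in the delta-2 group can recruit the WAVE regulatory complex, which drives actin branching. In cortex these families are known for the sorting of neurons, the outgrowth of axons and the choice of synaptic partners.

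Start-site sequence was taken from RefSeq (GRCm38.p6), which held an entry for 22 of the 35 genes, and is shown for the 4 of them with the largest difference between 1 neuron type and the other 3 in control mice. Each is the stretch of 250 bases before the annotated start, written 5' to 3' on the strand of the gene and stopped before the first exon base of the GENCODE M21 annotation, which took 9 bases off Pcdh18 and 8 off Cdh18. Pcdh18 is read from the minus strand of chr3:49757326-49757566, Pcdh20 from the minus strand of chr14:88471397-88471646, Cdh18 from the plus strand of chr15:23036213-23036454, which lies inside the longer GENCODE span of the gene, and Pcdh8 from the minus strand of chr14:79771313-79771562. The bases after the start lay within a GENCODE transcript of the gene for Pcdh18, Cdh18 and Pcdh8, but not for Pcdh20. Capitals mark the CCAAT box, read as ATTGG on the other strand, and the TATA box TATAAA.
Pcdh18: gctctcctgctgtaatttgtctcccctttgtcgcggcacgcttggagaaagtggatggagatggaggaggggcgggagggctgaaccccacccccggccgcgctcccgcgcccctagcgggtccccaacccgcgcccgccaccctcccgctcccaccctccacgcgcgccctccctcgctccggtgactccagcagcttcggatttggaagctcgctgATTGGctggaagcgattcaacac
Pcdh20: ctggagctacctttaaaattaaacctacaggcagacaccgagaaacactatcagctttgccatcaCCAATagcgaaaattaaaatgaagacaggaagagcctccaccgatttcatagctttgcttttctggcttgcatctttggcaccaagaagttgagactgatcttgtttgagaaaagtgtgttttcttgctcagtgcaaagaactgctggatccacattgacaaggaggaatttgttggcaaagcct
Cdh18: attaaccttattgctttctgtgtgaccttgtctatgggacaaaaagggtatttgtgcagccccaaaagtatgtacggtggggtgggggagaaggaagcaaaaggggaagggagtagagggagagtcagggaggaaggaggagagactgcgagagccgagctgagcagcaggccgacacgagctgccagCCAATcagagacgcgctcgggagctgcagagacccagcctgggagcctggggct
Pcdh8: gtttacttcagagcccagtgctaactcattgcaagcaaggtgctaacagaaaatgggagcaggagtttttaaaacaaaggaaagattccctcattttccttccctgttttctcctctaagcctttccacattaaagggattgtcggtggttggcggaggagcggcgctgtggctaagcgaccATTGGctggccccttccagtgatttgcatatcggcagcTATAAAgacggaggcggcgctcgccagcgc
A CCAAT box began 32 bases before the start in Pcdh18, 185 in Pcdh20, 62 in Cdh18 and 68 in Pcdh8, and the TATA box of Pcdh8 began 30 bases before its start. Searched on both strands over the full 250 bases, CCAAT was present in 14 of the 22 matched genes and in 33.85% of all 32851 promoters, and TATAAA in 2 (Pcdh15, Pcdh8) and 12.37%. The E-box CAGCTG was present in 2 (Cdh9, Cdh12) and 13%. Neither the homeodomain core TAATTA, present in 4.84% of all promoters, nor the cyclic AMP element TGACGTCA, present in 1.55%, was found in these 22 windows. The CCAAT motif was added after the sequences had been read. The 4 stretches differ in base composition: the windows of 250 bases held 68.0% G and C in Pcdh18, 58.0% in Cdh18, 51.2% in Pcdh8 and 42.4% in Pcdh20, against a median of 58.2% over the 22 genes and 52.4% over all promoters.

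Levels spanned the range from no reads to the abundance of the delta-protocadherins. A normalized count is the number of reads of a gene divided by the size factor of the library, and levels of different genes are compared per kb of exon. Exon bases shared with another annotated gene made up 21.1% of Pcdh7, 9.6% of Pcdh8, 6.3% of Cdh9, 3.1% of Cdh12 and at most 1.0% of any other of the 35 genes, and reads there cannot be assigned, since the strand setting of the counting is not given in the sources used here. In control PYR neurons the highest means per kb were those of Pcdh1 (273 ± 56.0, SD, n = 10), Pcdh9 (227 ± 71.1) and Pcdh10 (217 ± 46.0), followed by Cdh2, which encodes N-cadherin (126 ± 34.2). PV neurons were led by Pcdh9 at 284 ± 47.0 per kb, SST neurons by Pcdh9 at 279.9 ± 74.6, and VIP neurons by Pcdh10 at 237 ± 36.0 and Pcdh8 at 207 ± 63.8. At least 1 read was present in all 79 libraries for 11 genes: Cdh2, Cdh4, Cdh8, Cdh11, Cdh13, Pcdh1, Pcdh7, Pcdh9, Pcdh10, Pcdh17 and Pcdh19. Another 11 genes were detected in fewer libraries than not, and 6 of them had a mean under 10 normalized counts in the control libraries and were not tested there: Cdh1, the E-cadherin of epithelia, Cdh15, the M-cadherin of muscle, Cdh16 and Cdh17, known from kidney and from liver and gut, Cdh26, and Pcdh12, known from endothelium. Their highest group means lay between 10.4 and 24.2 normalized counts. Cdh5, the VE-cadherin of endothelium, had medians from 0 to 4.75 over the 8 groups, where the summed endothelial markers had medians from 108.5 to 359.

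**Figure D1:**
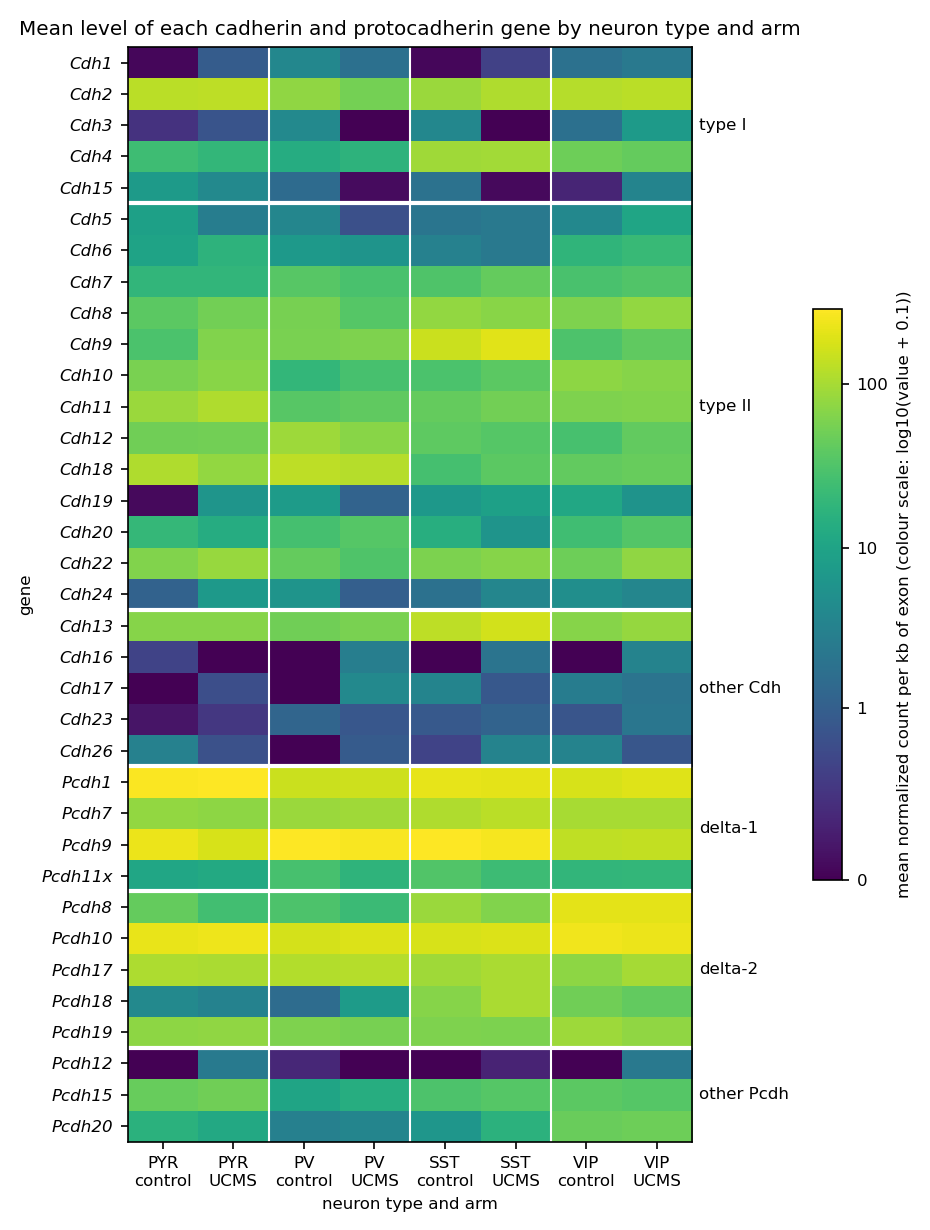
Mean normalized count per kb of exon for the 35 genes (rows, grouped by structural class) in each neuron type and arm (columns, n = 10 libraries each, 9 for UCMS PV); the colour scale is log10(value + 0.1). Pcdh1, Pcdh9 and Pcdh10 are high in every column, Pcdh18 is lower in PYR and PV than in SST and VIP, and Cdh1, Cdh16 and Pcdh12 are low in every column.

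The first comparison asks which of these genes differ between neuron types in unstressed mice. In the 40 control libraries, 15 genes differed among the 4 types by limma's F test at an adjusted p under 0.05: Cdh4, Cdh9, Cdh10, Cdh11, Cdh12, Cdh18, Cdh13, Pcdh1, Pcdh9, Pcdh8, Pcdh10, Pcdh17, Pcdh18, Pcdh15 and Pcdh20. They stand among 29 genes that passed the filter on low values, and 12.3% of all 17498 genes tested passed the same test. The tested cadherins and protocadherins are more abundant than most genes, with a median mean of 329 normalized counts against 95.9 over all genes tested; the part of abundance in the count was not tested. By class, the F test was passed by 1 of 3 tested type I genes, 5 of 13 type II genes, 1 of 2 other cadherins, 2 of 4 delta-1, 4 of 5 delta-2 and 2 of 2 other protocadherins.

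Set against the mean of the other 3 types, with a difference of at least 2-fold also required, 12 genes gave 21 differences. In PYR neurons Cdh11 and Cdh18 were higher (all genes higher, 2.24%) and Pcdh18 was lower (all genes lower, 2.03%; either way, 4.27%). PV neurons had Cdh18 higher (2.57%) and Cdh4, Cdh10, Pcdh8, Pcdh18, Pcdh15 and Pcdh20 lower (2.72%), so 7 genes in all (5.29%). SST neurons had Cdh4, Cdh9, Cdh13 and Pcdh18 higher (1.11%) and Cdh18 lower (0.680%), together 5 genes (1.79%). VIP neurons had Cdh10, Pcdh8, Pcdh18 and Pcdh20 higher (1.78%) and Cdh12 and Pcdh9 lower (1.04%), together 6 genes (2.82%). The 6 VIP genes were 3 without mouse U6 and 2, Pcdh8 and Pcdh18, without the 7 libraries with fewest reads. By edgeR on the recovered reads PYR, PV, SST and VIP neurons had 1, 4, 4 and 4 genes in place of 3, 7, 5 and 6. The share of all genes was not counted under these settings. These comparisons share libraries: a gene low in 1 type is in part high in the others by construction. Of the 21 differences, 10 were called in each of the 19 other analyses run on them, which are those of Cdh4 (PV, SST), Cdh9 (SST), Cdh10 (PV), Cdh13 (SST), Pcdh8 (VIP), Pcdh15 (PV) and Pcdh18 (PV, SST, VIP).

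**Figure D2:**
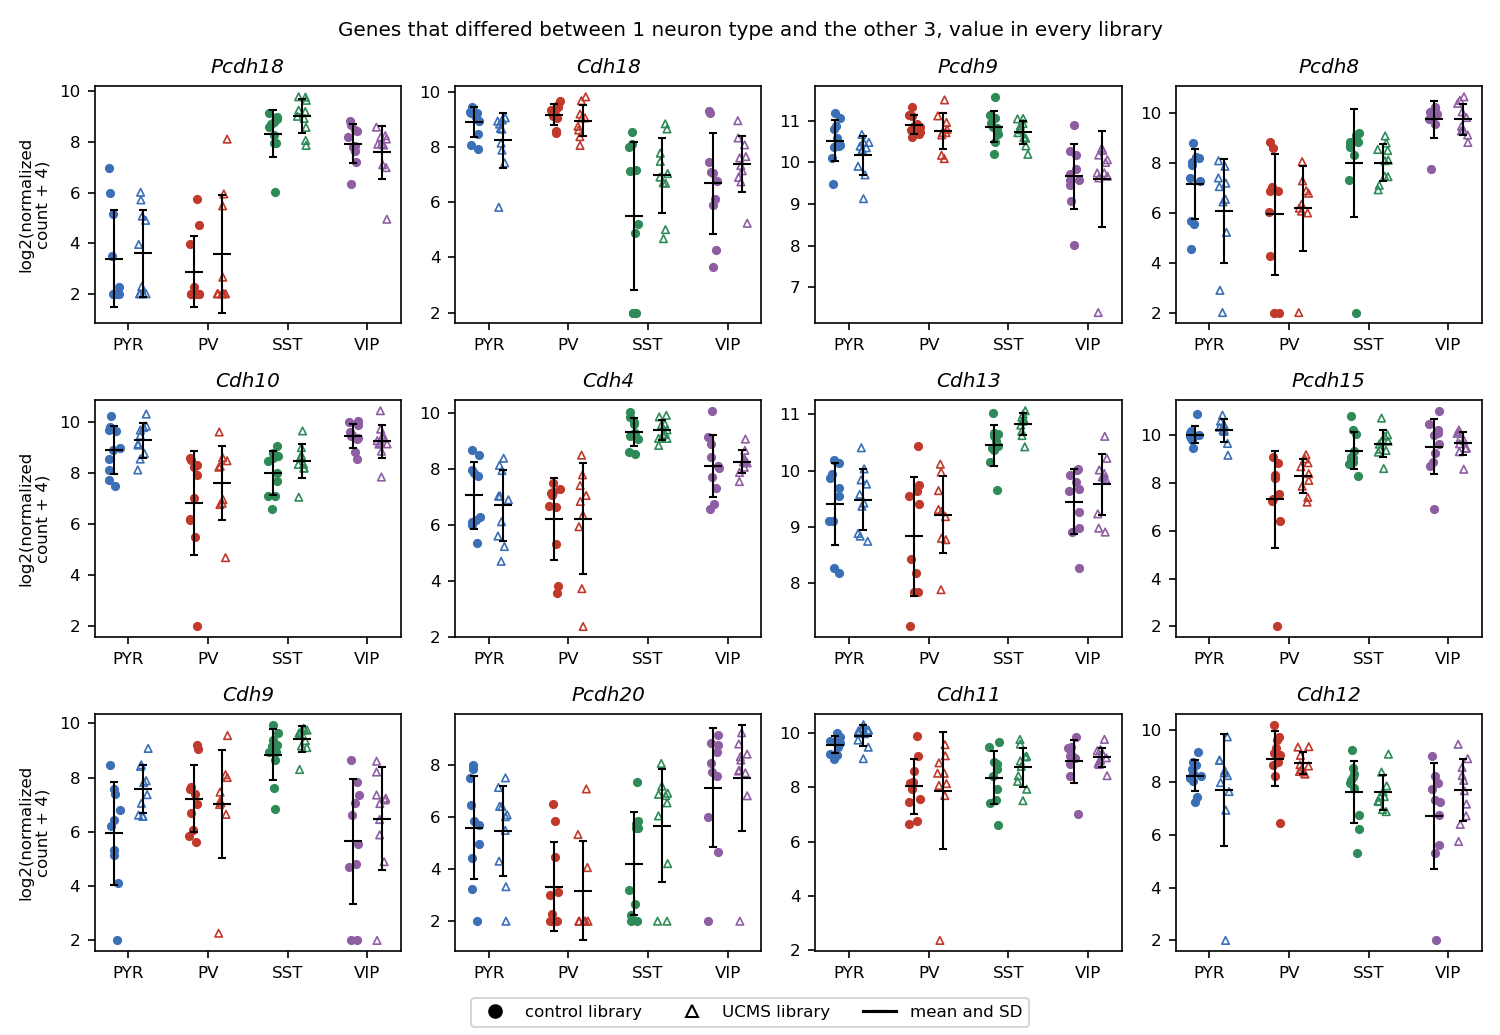
Value of each library, as log2(normalized count + 4), for the 12 genes that differed between 1 neuron type and the other 3 in control mice; filled circles are control and open triangles UCMS libraries, and bars give the mean and SD of each group (n = 10, 9 for UCMS PV). Libraries at 2 have no reads, as many PYR and PV libraries have for Pcdh18, while no SST or VIP library has none.

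Among type I cadherins, Cdh4, which encodes R-cadherin (chr2:179442431-179899373, plus strand), was highest in SST neurons. Its control libraries had a median of 609.8 normalized counts in SST neurons (370.0 to 1053), 263 in VIP (89.9 to 1081), 142 in PYR (36.9 to 403) and 114 in PV neurons (7.89 to 175). Every SST library lay above every PV library, while the VIP range contained the SST range. The log2 difference of SST from the other types was 2.19 (SE 0.50, adjusted p = 0.00165), and PV neurons were lower by -1.94 (SE 0.50, adjusted p = 0.00338). Cdh2 did not pass the F test in control mice. Its median was 977 normalized counts in PYR (547 to 1516), 873 in VIP, 739 in SST and 551 in PV neurons (126 to 1245), and of the 6 pairs of types only PYR against PV passed, with a log2 difference of 0.91 (SE 0.31, adjusted p = 0.0413). Cdh3, the P-cadherin first known from placenta, was detected in at most 3 libraries of any group.

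Type II cadherins gave differences in opposite directions, even between close neighbours on the chromosome. Chromosome 15 carries Cdh6, Cdh9, Cdh10, Cdh12 and Cdh18 in this order between 13028701 and 23474418, with gaps of 3.56, 1.96, 1.44 and 0.96 Mb. In control mice the highest mean was in VIP neurons for Cdh6 and Cdh10, in SST neurons for Cdh9 and in PV neurons for Cdh12 and Cdh18. For none of these genes did the highest type pass against the next, and Cdh6 passed no test between types. No test was made of the neighbourhood itself.

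Cdh18 (chr15:22549022-23474418, plus strand), a brain-expressed type II cadherin, was higher in PYR and PV than in SST and VIP neurons, the reverse of Pcdh18. In control mice each of these pairs passed, though for every pair of types the ranges overlapped. VIP neurons did not pass against the other 3 types together (-1.17, SE 0.53, adjusted p = 0.246). Control medians were 601.7 normalized counts in PV (361 to 807), 564 in PYR (240.2 to 702), 118 in VIP (8.51 to 637) and 85.0 in SST neurons (0 to 366), where 3 of 10 libraries had no reads. All PV libraries but 1 lay above the highest SST library, and 2 of the 10 VIP libraries reached PV levels, at 593 and 637. The log2 difference from the other types was 2.15 in PV (SE 0.53, adjusted p = 0.00211), 1.77 in PYR (adjusted p = 0.0205) and -2.75 in SST neurons (adjusted p = 8.45e-05). By edgeR on the recovered reads these 3 differences did not pass, with adjusted p of 0.103, 0.135 and 0.219. The PYR call was also lost without mouse U2, U6 or U10, with values of 1.71, 1.57 and 1.48, and without the filter on low values.

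Cdh9, a type II cadherin known from the mossy fibre synapses of the hippocampus (chr15:16728756-16857094, plus strand), was highest in SST neurons. The control median was 534 normalized counts in SST (111 to 990.4), 147 in PV (45.0 to 588), 76.5 in PYR (0 to 354) and 69.1 in VIP neurons (0 to 395). SST neurons were higher than the others by 2.57 on the log2 scale (SE 0.63, adjusted p = 0.00448). The pair SST against PV, neighbours in the order of levels, did not pass.

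Cdh10, a close relative that Cdh9 is known to bind (chr15:18818947-19014236, plus strand), followed another order. Its control median was 709.7 normalized counts in VIP (376 to 1064), 494 in PYR (177 to 1208), 306 in SST (92.5 to 535) and 183 in PV neurons (0 to 386). VIP neurons were higher by 1.53 (SE 0.41, adjusted p = 0.00867) and PV neurons lower by -1.95 (SE 0.41, adjusted p = 0.000132). The VIP difference was 1.19 with an adjusted p of 0.204 without the 7 libraries with fewest reads. The summed astrocyte markers of control libraries had medians in the same order, 10234 in VIP, 8316 in PYR, 6522 in SST and 6399 in PV. Their part in the VIP and PV differences of Cdh10 was not tested.

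Cdh12 (chr15:20449265-21589533, plus strand) had its highest median in PV neurons, 535 normalized counts (84.5 to 1164), then 311 in PYR (147 to 564), 256 in SST (36.0 to 593) and 154 in VIP neurons (0 to 507). The difference of VIP from the others was -1.54 (SE 0.47, adjusted p = 0.0347). It was no longer called without mouse U2, U5, U6 or U10, and was -0.97 without U6 (adjusted p = 0.298), whose VIP library had no Cdh12 reads and the fewest reads of all. The call was also lost by edgeR (adjusted p = 0.175), without the filter on low values (adjusted p = 0.0835) and without the 7 libraries with fewest reads (adjusted p = 0.488). Cdh11 is known as osteoblast cadherin and is also made in brain (chr8:102632095-102785642, minus strand). In control mice it was the type II gene called higher in PYR neurons and lower in no type. Its difference in PV neurons was -0.92 (SE 0.34, adjusted p = 0.0822). Control medians were 790.2 normalized counts in PYR (524 to 1008), 545 in VIP (126 to 923), 368 in SST (93.6 to 802) and 263 in PV neurons (95.7 to 934), and the difference of PYR was 1.12 (SE 0.34, adjusted p = 0.0228). Without mouse U5 or without mouse U9 it was 1.10 or 1.03 and no longer passed. Of the Cdh11 pairs with PYR, only PYR against PV passed (1.52, SE 0.41, adjusted p = 0.00617). Cdh6, Cdh7, Cdh8, Cdh20 and Cdh22, with control group means between 29.0 and 601.3 normalized counts, and the scarce Cdh5, Cdh19 and Cdh24, at 0.0923 to 50.1, passed no test between types in control mice by limma; Cdh19 passed the F test by edgeR on the recovered reads.

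Cdh13 encodes T-cadherin, which is held by a lipid anchor and has no tail for catenins (chr8:118283733-119324921, plus strand). Control SST neurons had a median of 1422 normalized counts (805 to 2075), VIP 804 (302 to 1044), PYR 782 (284 to 1161) and PV neurons 508 (146 to 1375). SST neurons were higher than the others by 1.22 (SE 0.25, adjusted p = 0.000336), and each of the 3 pairs with SST passed. Cdh23, a tip-link protein of hair cells, had control means of 0.980 to 20.7 normalized counts and passed no test.

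Among the delta-1 genes, Pcdh9 (chr14:93013410-93890679, minus strand) was lower in VIP neurons. Its control median was 804 normalized counts in VIP (254 to 1898), 1443 in PYR (709 to 2299), 1825 in SST (1176 to 3035) and 1863 in PV neurons (1545 to 2555), and the difference of VIP from the others was -1.10 (SE 0.18, adjusted p = 8.58e-07). Without the 7 libraries with fewest reads, 4 of them control VIP, the difference was -0.58, with an adjusted p of 0.112. Without mouse U6 it was -0.85, under 2-fold, with an adjusted p of 0.000343. Control VIP libraries also had the highest astrocyte sums, and the part of this and of read depth in the VIP differences was not tested. Pcdh1 passed the F test without a 2-fold difference. Its control median was 2291 normalized counts in PYR neurons (1967 to 3628), 1691 in SST, 1485 in VIP and 1149 in PV neurons (792 to 2337), and PYR exceeded PV by 0.92 (SE 0.20, adjusted p = 0.000191) and VIP by 0.70 (adjusted p = 0.0159). Pcdh7 and Pcdh11x did not pass between types in control mice; their control means were 821 to 1171 and 152 to 461 normalized counts.

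Pcdh18, a delta-2 protocadherin known to bind the adaptor Dab1 (chr3:49743296-49757325, minus strand), had the smallest F-test p of the 35 genes (adjusted p = 3.00e-10) and was the gene that differed in every comparison of 1 type with the others. The control median was 398 normalized counts in SST (60.1 to 558), 256 in VIP (76.6 to 451), 0.423 in PYR (0 to 121) and 0 in PV neurons (0 to 48.9). No reads were found in 6 of 10 PV and 5 of 10 PYR libraries, and none of the SST or VIP libraries was at 0. The PV range lay wholly below the SST and VIP ranges, and the PYR range overlapped both. SST neurons were higher than the others by 3.60 (SE 0.73, adjusted p = 0.000227) and VIP neurons by 3.08 (adjusted p = 0.00222), PV neurons were lower by -3.68 (adjusted p = 4.80e-05) and PYR neurons by -2.99 (adjusted p = 0.00202). By edgeR the PYR difference had an adjusted p of 0.130. With 4 added to each value before the logarithm, these differences understate the change where libraries have no reads.

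Pcdh8, also called arcadlin, is induced by neuronal activity and is known to draw N-cadherin off the synaptic surface (chr14:79766775-79771312, minus strand). It was highest in VIP neurons: the control median was 1038 normalized counts in VIP (211 to 1207), 434 in SST (0 to 595), 200.8 in PYR (19.6 to 442) and 113 in PV neurons (0 to 458). Apart from 1 library at 211, from mouse U4, all VIP libraries lay above the highest library of every other type. VIP neurons were higher by 2.73 (SE 0.51, adjusted p = 3.18e-05) and PV neurons lower by -2.36 (adjusted p = 0.000267), a difference with an adjusted p of 0.0581 by edgeR. The pair SST against VIP did not pass (-1.76, SE 0.63, adjusted p = 0.113). Pcdh10 and Pcdh17 passed the F test without a 2-fold difference: Pcdh10, known for synapse elimination, had control medians of 3513, 2764, 2770.0 and 3559 normalized counts in PYR, PV, SST and VIP neurons, and Pcdh17 had 1248, 1375, 1122 and 952. For both the pair PV against VIP passed, by -0.49 (SE 0.14, adjusted p = 0.0164) and by 0.80 (SE 0.25, adjusted p = 0.0255). Pcdh17 no longer passed the F test with a pseudocount of 1, without the filter, by edgeR, by DESeq2, without the mouse block, or without mouse U1, U2, U5, U6, U8 or U9, and Pcdh10 not without the filter or without U2. Pcdh19, whose human counterpart is an epilepsy gene, had control means of 631 to 926 normalized counts and passed no test.

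Pcdh15, the partner of Cdh23 in the tip link (chr10:73099342-74649737, plus strand), was low in PV neurons. The control median was 232 normalized counts in PV (0 to 532), 987 in PYR (685 to 1867), 899 in VIP (115 to 2043) and 529 in SST neurons (309 to 1777), and no PV library reached the lowest PYR library. PV neurons were lower by -2.31 (SE 0.41, adjusted p = 8.25e-05). The summed level of 5 markers of oligodendrocyte precursor cells also had its lowest control median in PV neurons, at 188 normalized counts. For SST, PYR and VIP neurons this median was 344, 346 and 362. The PV sums ran from 18.6 to 902, a range that contained those of the other types. In UCMS mice the PV median was again the lowest, at 181. The part of such cells in the PV difference of Pcdh15 was not tested. Pcdh20 (chr14:88464743-88471396, minus strand) had a control median of 236 normalized counts in VIP (0 to 559), 49.9 in PYR (0 to 248), 24.2 in SST (0 to 156) and 2.38 in PV neurons (0 to 86.6). VIP neurons were higher by 2.75 (SE 0.78, adjusted p = 0.0169) and PV neurons lower by -2.32 (adjusted p = 0.0437). The PV call was kept in 2 of 10 fits without 1 mouse, and the VIP call in 7, the exceptions being U2, U6 and U9. By edgeR neither passed (adjusted p = 0.130 and 0.103).

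Between single pairs of types, PV and VIP neurons differed in 11 of the 29 tested genes (6.83% of all genes), PV and SST in 6 (3.68%), PYR and PV in 5 (8.32%), PYR and SST in 5 (4.53%), PYR and VIP in 5 (4.12%) and SST and VIP in 3 (2.93%). These 35 pair differences fell to 22 by edgeR on the recovered reads and rose to 42 by DESeq2. The share of all genes was not counted for either tool. When the types are ordered by mean level for each gene, neighbours in the order passed in 5 genes only: PYR above VIP for Cdh18 and for Pcdh9, SST above PYR for Cdh13, VIP above PYR for Pcdh18, and SST above PV for Pcdh15. For the other tested genes no step from 1 type to the next passed at the adjusted threshold, which does not show that neighbours were alike, and the full order is a description.

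The UCMS mice are other animals and give the same type comparison again. There, 19 of 28 tested genes passed the F test (16.3% of all genes), and 13 of the 15 genes of the control mice were among them. The UCMS count was 13 without mouse U604, and 15 by edgeR on the recovered reads, which did not call Cdh6, Cdh8, Cdh20 or Cdh22. Cdh12 and Pcdh17 passed in control mice only, and Cdh2, Cdh6, Cdh8, Cdh20, Cdh22 and Pcdh7 in UCMS mice only; whether the arms differ was tested as the interaction of stress and type. All 21 differences between 1 type and the others had the same sign in UCMS mice, and 16 passed there too. Over all genes, called in control mice or not, 4.98%, 7.37%, 2.10% and 4.15% passed for PYR, PV, SST and VIP neurons. The share of all genes called in control mice that kept their sign or passed again was not counted. In all, 5 genes differed in PYR neurons of UCMS mice, Cdh11 and Pcdh15 higher (all genes higher, 2.59%) and Cdh4, Pcdh8 and Pcdh18 lower (2.39%). PV neurons had 12: Cdh12 and Cdh18 higher (2.76%), and 10 lower (4.62%), the 6 of the control mice with Cdh2, Cdh8, Cdh11 and Cdh22. SST neurons had Cdh4, Cdh9, Cdh13 and Pcdh18 higher (1.51%) and Cdh20 lower (0.590%), and VIP neurons had Pcdh8, Pcdh18 and Pcdh20 higher (2.69%) and Cdh9 lower (1.46%).

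Pairs of types in UCMS mice gave 11 genes for PV against VIP (11% of all genes), 10 for PV against SST (5.24%), 7 for PYR against PV (11.3%), 6 for PYR against SST (6.26%), 6 for SST against VIP (4.39%) and 4 for PYR against VIP (5.32%). Cdh20, a type II cadherin, was the widest of the pair differences not called in control mice: PV exceeded SST by 3.47 on the log2 scale and SST minus VIP was -3.28. Its UCMS median was 0.331 normalized counts in SST neurons, where 5 of 10 libraries had no reads, 138 in PV and 123 in VIP neurons. In control mice PV minus SST was 1.32 (SE 0.96) and SST minus VIP was -0.38 (SE 0.96), and neither passed. Cdh2 was lower in PV neurons than in PYR, SST and VIP neurons, by 1.38, -1.18 and -1.35 as first minus second type in the order PYR, PV, SST, VIP. Cdh8 in PV neurons was lower than in SST and VIP neurons, by -1.29 and -1.25, and Pcdh7 was lower in PYR than in SST neurons by -0.85.

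Pcdh18 was 4.12 higher on the log2 scale in SST neurons of UCMS mice (SE 0.63, adjusted p = 9.48e-08), with a median of 548 normalized counts (228 to 876). The 5 that did not pass were Cdh18 in PYR (0.51, adjusted p = 0.556) and SST neurons (-1.18, adjusted p = 0.0562), and Cdh10 (0.79, adjusted p = 0.0717), Cdh12 (-0.36, adjusted p = 0.694) and Pcdh9 (-0.94, under 2-fold) in VIP neurons.

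**Figure D3:**
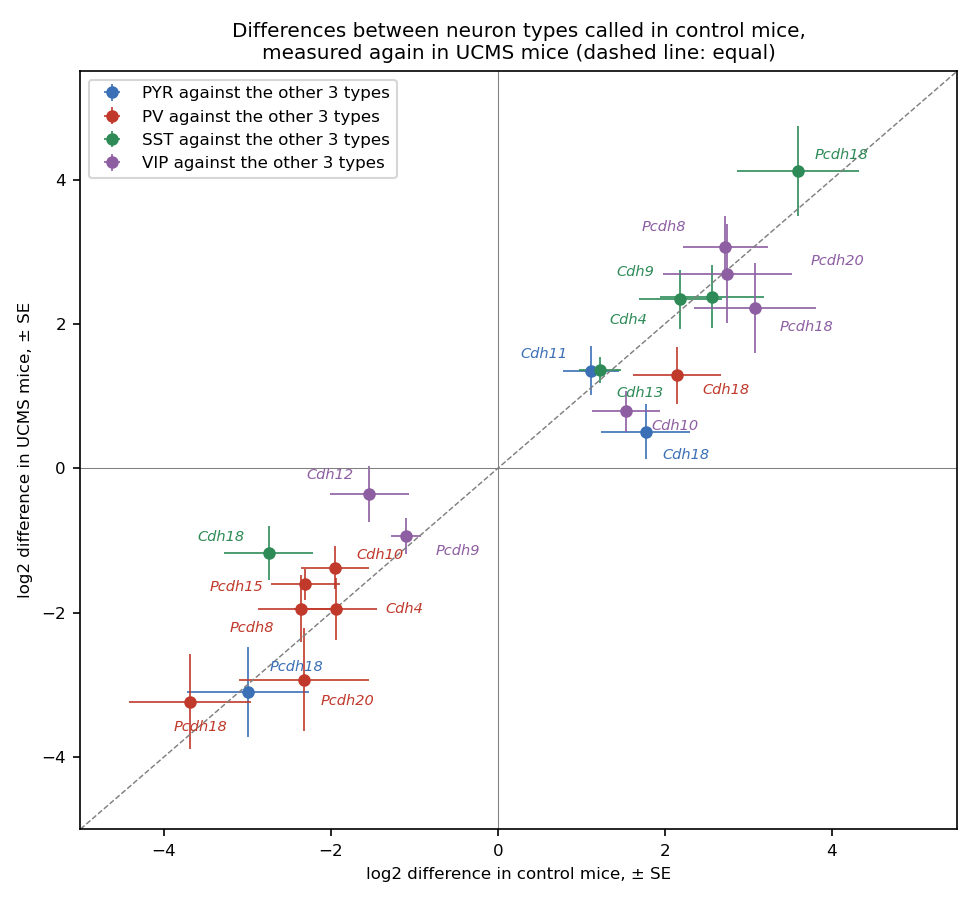
Log2 difference of 1 neuron type from the other 3 in UCMS mice (vertical axis) against that in control mice (horizontal axis) for the 21 differences called in control mice, with SE bars; the dashed line marks equal values. All points have the same sign on both axes, and Cdh18 and Cdh12 lie farthest towards 0 in UCMS mice.

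The second comparison asks how stress changed these genes within each neuron type. By limma, 0 of the tested genes passed in PYR (28 tested), PV (28), SST (26) or VIP neurons (30), where 0.0808%, 0%, 0% and 0% of all genes passed; edgeR and DESeq2 on the recovered reads also called 0 in each type. At an unadjusted p under 0.05 there were 3 genes in PYR neurons (6.36% of all genes), 0 in PV (3.74%), 2 in SST (5.72%) and 1 in VIP neurons (5.15%). The median SE of a log2 difference was 0.43 in PYR, 0.58 in PV, 0.38 in SST and 0.59 in VIP neurons, so the data do not show that the genes were unaltered.

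Cdh9 in PYR neurons had the smallest unadjusted p. Its values were 0 to 354 normalized counts in control mice, with a median of 76.5, and 91.6 to 538 in UCMS mice, with a median of 192. All 10 UCMS libraries lay above the control median, though the 2 ranges overlapped widely. The log2 difference was 1.64 (SE 0.58, unadjusted p = 0.00499, adjusted p = 0.634). Also in PYR neurons, Cdh18 had a median of 564 in control (240.2 to 702) and 402 in UCMS mice (52.3 to 531), with all 10 UCMS libraries below the control median (-0.65, SE 0.30, adjusted p = 0.764), and Pcdh9 had 1443 (709 to 2299) and 1280.4 (556 to 1622), with 9 of 10 below (-0.35, SE 0.17, adjusted p = 0.764).

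In SST neurons, Cdh7, a type II cadherin, had a median of 335 normalized counts in control (0 to 628) and 416 in UCMS mice (123 to 762), with 7 of 10 UCMS libraries above the control median (1.19, SE 0.48, adjusted p = 0.784). Cdh13, already highest in SST neurons, had 1422 and 1889, with 9 of 10 above (0.38, SE 0.18, adjusted p = 0.853). Neither passed after adjustment.

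VIP neurons had Pcdh17 at a median of 952 in control and 1247 in UCMS mice, with 8 of 10 above (0.58, SE 0.27, adjusted p = 0.932), and Cdh20 at 23.5 and 123, with 9 of 10 above (1.88, SE 0.98, adjusted p = 0.932). In PV neurons the smallest p belonged to Pcdh15, with medians of 232 and 327 and 6 of 9 above (0.98, SE 0.57, adjusted p = 0.982), and to Cdh8, with 364 and 329 and 7 of 9 below (-0.79, SE 0.48, adjusted p = 0.982). None of these 4 passed.

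The median log2 difference over tested members was 0.10 in PYR (all genes 0.10), -0.06 in PV (0.05), 0.27 in SST (0.15) and 0.16 in VIP neurons (0.17). Averaged over types with 1 value per mouse, 0 of 29 passed (0% of all genes), with a median of 0.18 against 0.13 over all genes. Cdh9 (0.74, SE 0.33, adjusted p = 0.707) and Pcdh15 (0.37, SE 0.18, adjusted p = 0.728) had an unadjusted p under 0.05, where 6.82% of all genes did. The test of whether the stress effect differed between types called 0 of 29 by limma, edgeR and DESeq2, and only Cdh18 had an unadjusted p under 0.05 (0.0386, adjusted p = 1.00), where 4.68% of all genes did.

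**Figure D4:**
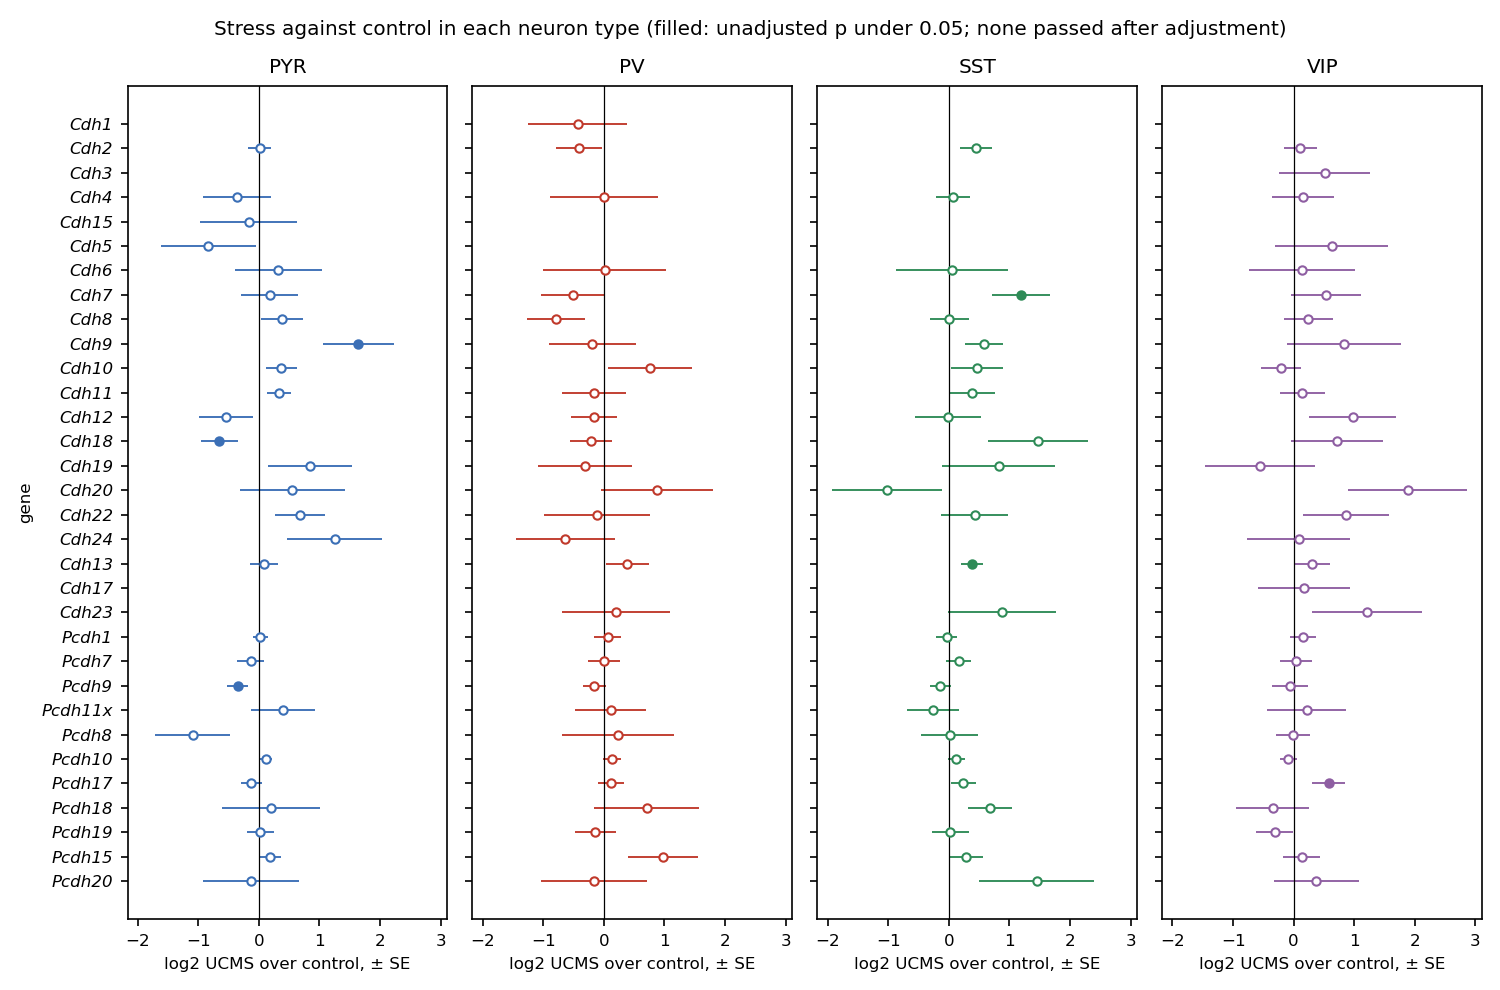
Log2 difference of UCMS from control mice with its SE for each tested gene (rows) in each neuron type (panels); filled points have an unadjusted p under 0.05 and none passed after adjustment. Cdh9 in PYR neurons lies at 1.64 and Cdh20 in VIP neurons at 1.88 with a wider SE, and abundant genes such as Pcdh1 and Pcdh10 lie close to 0.

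Partners of the cadherin tail were read from a list of 18 catenins and other cadherin-binding genes, all tested, of which 6 differed among types in control mice by the F test that 12.3% of all genes passed. The smallest p was that of Ptprm, a receptor tyrosine phosphatase that adheres to itself and is found at cadherin junctions. Its control mean was 1994 ± 525 normalized counts in SST and 1668 ± 377 in PV neurons, against 275 ± 154 in VIP and 182 ± 116 in PYR neurons (SD, n = 10), and it was lower in PYR neurons by -2.89 (SE 0.34, adjusted p = 6.78e-11). Pkp4, a catenin relative, was higher in PV neurons by 1.19 (SE 0.17, adjusted p = 7.53e-09), and the scaffold Magi1 was higher in VIP neurons by 1.08 (SE 0.20, adjusted p = 1.98e-05). Ctnnb1, which encodes beta-catenin, had means of 1474 in PYR, 1526 in VIP, 887 in PV and 773 in SST neurons and passed the F test (adjusted p = 0.000241); Erbin and Vcl also passed.

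Of the 9 genes of the WAVE regulatory complex, 6 differed among types in control mice (12.3% of all genes): Cyfip2, Nckap1, Abi2, Wasf3, Wasf1 and Cyfip1. Cyfip2 had a mean of 12480.0 ± 761 normalized counts in PYR neurons and of 9930.4, 7864 and 8349 in PV, SST and VIP neurons. Nckap1 had 5465 ± 845 in PYR and 3054 to 3537 in the interneurons, and Abi2 had 2313 ± 372 against 1078 to 1734. Wasf1 was higher in PYR neurons by 1.25 (SE 0.30, adjusted p = 0.00559) and lower in PV neurons by -1.28 (SE 0.30, adjusted p = 0.00379), while Wasf3 was lower in PYR neurons by -1.09 (SE 0.23, adjusted p = 0.000181). The same F test was passed in UCMS mice by 11 of the 18 cadherin partners and by 6 of the 9 WAVE genes (16.3% of all genes). Under stress 0 of the 27 passed in any type; at an unadjusted p under 0.05 there were 3 cadherin partners and 4 WAVE genes in VIP neurons (5.15% of all genes), 1 WAVE gene in PYR (6.36%), 1 WAVE gene in SST (5.72%) and 0 genes in PV neurons (3.74%).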

How the data were processed

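Libraries were made with the SMARTer Stranded Total RNA-Seq Pico kit, per the labels' protocols. The submitters' processing notes name HISAT2, SAMtools 1.3, DESeq2 and the mouse build GRCm38 (mm10); no source used here gives the read counter, the annotation or the strand setting. The deposited values are a signal: the authors divided the reads of each gene by the size factor of the library. Whole reads were recovered from them, and 100% of values came out whole within 0.001.

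The test was limma 3.58.1 (R 4.3.3) with a trend and robust variances applied to log2(normalized count + 4). Genes whose mean over the fitted libraries was under 10 were left out. P-values had Benjamini-Hochberg adjustment over all genes tested and a threshold of 0.05. A type against the mean of the other 3 also needed a 2-fold difference. Type and interaction fits held the mouse as a block, since the labels give 1 mouse number to the libraries of 1 animal. Stress within a type was fitted without a block, and the average used 1 mean per mouse. Fold changes are on the log2(value + 4) scale, which understates changes of low genes. Sums of marker genes use the same normalized counts. Exon lengths and gene positions are from GENCODE M21 on GRCm38, promoter sequences from RefSeq.

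Genes were named by rule: every gene called in at least 1 type against the others in control mice, each gene with an unadjusted p under 0.05 for stress and in any case the 2 with the smallest p per type, and up to 4 of each partner list. The genes, lists and rules were chosen with earlier results of these data known. Other settings tried were an added 1 or 16 in place of 4, a minimum mean of 50 or none, quantile scaling, edgeR 4.0.16 (TMM, quasi-likelihood) and DESeq2 1.42.0 on the recovered reads, fits without the mouse block or with the mouse as a random block, medians in place of means, and leaving out each mouse. Leaving out the 7 libraries with fewest reads was added after seeing the data. The procedure was tested on simulated data with known changes. Of 2-fold stress changes, 15.5%, 10.2%, 12.5% and 18.8% were recovered in PYR, PV, SST and VIP neurons. For 1 type against the others, where a 2-fold estimate was also required, these were 7.69%, 13.6%, 11.2% and 10.3%. Of 4-fold stress changes, 37.2%, 35.5%, 38.9% and 38.6% were recovered.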

Additional observations from a re-analysis of the deposited data

Results flagged for a closer look

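For the 12 genes that differed between types, the 96 groups of libraries were checked for a single library far from the others on the log2(value + 4) scale, and 18 groups held one. The cut-off flags about 1 in 20 groups of normally distributed values. Values that fall to no reads need not be so distributed, so the number flagged is a description. All values are normalized counts.

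In control mice, Pcdh18 in SST neurons was 60.1 in mouse U10 against 242 to 558 in the others. Pcdh8 was 0 in SST neurons of U6 (155 to 595 in the others) and 211 in VIP neurons of U4 (766 to 1207). Cdh10 was 0 in PV neurons of U3 (41.3 to 386), and so was Pcdh15 (80.7 to 532), in the library with the fewest detected genes, 9033. Pcdh15 was high in PYR neurons of U2, at 1867 (685 to 1126). Cdh11 was 126 in VIP neurons of U10 (335 to 923). Cdh12 was 84.5 in PV neurons of U1 (295 to 1164) and 0 in VIP neurons of U6 (36.2 to 507), the library with the fewest reads, 3642579.

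In UCMS mice, 3 of the values come from 1 library, VIP neurons of U601, with 9636 genes detected: Pcdh18 was 26.8 there (123 to 379 in the others), Pcdh9 was 80.4 (786 to 1291) and Pcdh20 was 0 (108 to 596). Cdh18 was 52.3 in PYR neurons of U608 (168 to 531). Pcdh8 was 0 in PV neurons of U610 (60.2 to 263). Cdh9 was 0.81 in PV neurons of U602 (96.4 to 748) and 312 in SST neurons of U605 (548 to 903). Cdh11 was 1.16 in PV neurons of U604 (202 to 750). Cdh12 was 0 in PYR neurons of U605 (119 to 844).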

How the results depend on the processing

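Of the 21 differences between 1 type and the others in control mice, 10 were called under each alternative and each omission of a mouse. By edgeR on the recovered reads 1 gene was called in PYR (3 by limma) and 4 in PV (7). Over the 6 pairs of types 22 differences were called (35). The cause was not tested. The share of all genes called was counted in the main fit only. A drop over all genes cannot be told apart from one in these genes. VIP against the others gave 6 genes, 3 without mouse U6 and 2 without the 7 libraries with fewest reads, which removes 4 of 10 control VIP libraries. Leaving out 1 mouse at a time gave 3 to 6 genes in VIP, 2 to 4 in PYR, 6 to 8 in PV, 5 in SST, 28 to 35 pair differences, 12 to 15 genes in the control F test and 13 to 18 in the UCMS F test (19 with all mice). No stress or interaction result was called in any setting run; edgeR and DESeq2 were not run for the average over types. Over these alternatives the 21 type differences lost their call 39 times, and no named difference changed sign. The other 739 of 778 values checked over the named genes were counted as kept. They include stress values that never passed the threshold, and medians set against means, which have no threshold.

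Without the replicate block for the mouse, 14 genes passed the control F test (15 with it), 17 the UCMS F test (19) and 33 pair differences (35), and the block changed no other count. With the mouse as a random replicate block, 0 genes passed for stress; the correlation within a mouse was 0.0104. Depth limits the low genes most: Cdh1, Cdh15, Cdh16, Cdh17, Cdh26 and Pcdh12 were seen in 8 to 19 of 79 libraries.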

Other observations

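The clustered protocadherins, whose many isoforms are chosen cell by cell, are outside the rule. In control mice 3 of 52 tested passed the F test among types (5.77%, where 12.3% of all genes did): Pcdhac2 had mean levels of 429 normalized counts in PYR, 1109 in PV, 726 in SST and 501 in VIP neurons (adjusted p = 0.00183 by limma), Pcdhgc4 had 42.9, 185, 260.3 and 286, and Pcdhgc5 had 796, 254.5, 429 and 431. In UCMS mice 5 of 54 passed (9.26%, where 16.3% of all genes did): Pcdhac2, Pcdhgc5, Pcdhgc4, Pcdhga2 and Pcdhb15. Isoforms of the Pcdha and Pcdhg loci share their constant exons, and the levels of single isoforms are uncertain. By limma 0 were called for stress in any type, with 5, 4, 5 and 0 at an unadjusted p under 0.05 in PYR, PV, SST and VIP neurons, where 6.36%, 3.74%, 5.72% and 5.15% of all genes did.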
